A study of Arabidopsis thaliana with 14 samples.

Results

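Zygote and mature embryos of Arabidopsis thaliana, the first and last stages sampled, were set against the growing stages between them, and genes high or low at both ends were sought. The 4 end libraries were compared with 10 libraries of growing embryos, out of 14 in all, over all 25414 table entries with a locus code. Whole Col-0 embryos had been isolated at 7 stages, with 2 biological replicates a stage and no treatment or mutant allele in any group. Zygote stage and mature stage embryos made up the ends, and octant, globular, heart, torpedo and bent stage embryos made up the growing stages. Their RNA was amplified before library construction, per the labels' protocols, and ages and numbers of embryos were not given in the sources used here. Values are reads of a gene per 20000000 reads of its library, and changes are differences of log2(value + 4).

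The zygote is the fertilised egg before its first division, and it carries RNA made before or just after fertilisation. The embryo then divides, forms its pattern, greens and fills with oil and storage protein. At maturity it stops growing, tolerates drying and enters dormancy. Late embryogenesis abundant (LEA) proteins and small heat shock proteins are known for protecting dry seed tissue. Abscisic acid promotes the expression of many LEA genes through ACGTG promoter elements. The low-energy response of plants adjusts metabolism when carbon is short.

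The end libraries held 12783748 to 20625372 reads and the growing libraries 6078186 to 30803336 reads. A value of 10 or more was reached by 12685 to 15086 genes in end libraries and by 14763 to 16617 genes in growing libraries. The stage labels were checked against markers. The LEA gene GEA6 was at 408115 and 315344 in mature libraries, against 2.25 to 98.7 in growing libraries. Of 5 egg cell genes of the EC1 family, EC1.1, EC1.2, EC1.3 and EC1.4 were at 0 in both zygote libraries. EC1.5 was at 1620 and 854 in zygote libraries and 0 in both mature libraries, against 0 to 1167 in growing libraries, with 1167 and 1101 in the octant libraries. Summed egg, synergid, pollen and sperm markers, of which 7 of 13 were tested, were 2667 to 3598 in zygote, 125 to 129 in mature and 28.1 to 3528 in growing libraries. Summed seed coat markers were 3707 to 5216 in zygote libraries, 20.3 to 25.4 in mature libraries, and 265 to 16659 in growing libraries, with 1 octant library highest. Summed endosperm markers were 165 to 190 in zygote, 21.9 to 31.3 in mature and 16.6 to 569 in growing libraries. Tissue carried over and expression in the embryo itself cannot be told apart in these sums, and their part in the results was not tested.

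Each end was tested against the mean of the 5 growing stages with limma, across 18744 genes, with Benjamini-Hochberg adjustment at 0.05. Both tests used the same growing libraries, so they are not independent of each other. Of the genes tested, 949 were higher at both ends, which is 5.06% of all tested genes. A further 5533, or 29.5%, were lower at both ends. The other combinations were 1973 genes high in zygotes and low in mature embryos (10.5%) and 1265 low in zygotes and high in mature embryos (6.75%). Taken singly, the zygote was higher than the growing stages for 4240 genes (22.6%) and lower for 9151 (48.8%). The mature embryo was higher for 3452 genes (18.4%) and lower for 9853 (52.6%). The mean of both ends was higher for 3572 genes (19.1%) and lower for 10098 (53.9%). All of these tests take libraries as units. With stage as a random block, which treats libraries of a stage as correlated, the mean of both ends was higher for 87 genes and lower for 291.

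The excess of lower genes depended on how libraries were scaled. The median log2 change of all tested genes was -0.81 in zygotes and -0.98 in mature embryos as deposited. Centring each library on its median gave 3340 genes high and 1910 low at both ends. The scalings of edgeR and DESeq2, each with its own test in place of limma, gave 2266 and 2411, and 2450 and 2196. Under every scaling tried, 937 of the 949 high genes and 1696 of the 5533 low genes kept their call. Every other scaling raised both medians, to between -0.37 and 0.24 in zygotes and -0.52 and 0.48 in mature embryos. A high call was therefore likely to hold in advance, so here and below the check bears mainly on low calls. The low genes that kept their call were 9.05% of tested genes. In bulk RNA, fewer cells of a type and less RNA per cell cannot be told apart.

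**Figure D1:**
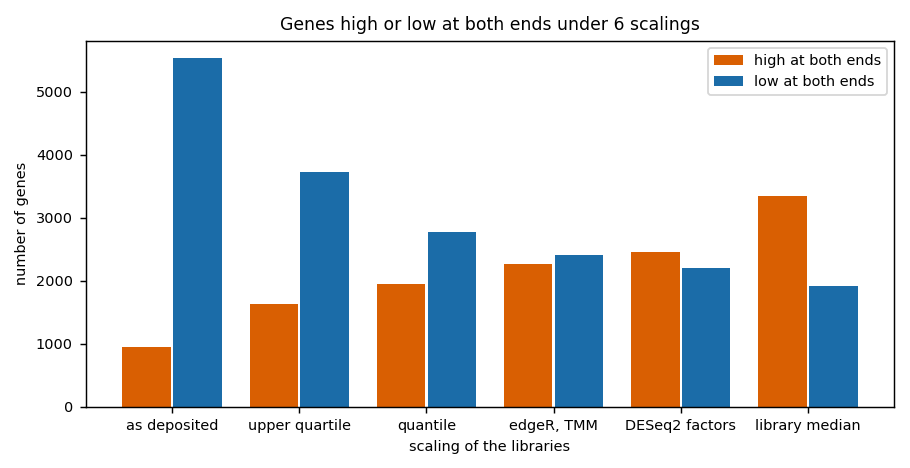
Number of genes (vertical axis) higher or lower than the growing stages in both zygote and mature embryos, under 6 scalings of the libraries (horizontal axis). Low genes numbered 5533 and high genes 949 as deposited, and 1910 and 3340 after centring each library on its median. For edgeR and DESeq2 the test changed along with the scaling.

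A stricter group was defined by separation of libraries. All 4 end libraries lay above all 10 growing libraries for 302 of the high genes (1.61% of tested genes), and below them for 2242 of the low genes (12.0%). Whatever their p, 305 genes lay above (1.63%) and 2252 below (12.0%). Each end also passed the test against each growing stage singly for 146 high genes (0.779%) and 1236 low genes (6.59%). Among the 302 high genes, the growing stage closest to the ends, the one with the highest mean, was the octant stage for 161 genes (53.3%). It was bent for 47 (15.6%), heart for 45 (14.9%), globular for 32 (10.6%) and torpedo for 17 (5.63%). Among the 2242 low genes the lowest growing stage was most often globular, for 999 genes (44.6%), and was torpedo for 12 (0.535%). Genes high at both ends took 10.49% and 10.15% of named-gene reads in zygote libraries and 33.2% and 29.6% in mature libraries, against 1.70% to 6.99% in growing libraries. Genes low at both ends took 6.35% and 7.34% in zygotes and 4.07% and 4.95% in mature embryos, against 21.1% to 50.6% in growing embryos.

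LEA proteins were among the genes most often high at both ends. Of 36 tested members of 37, 20 were higher at both ends (55.6%, against 5.06% of all tested genes), each under every scaling, and 0 were lower at both. In 7 of them no end library overlapped a growing one. The list's median log2 change was 1.65 in zygotes and 8.72 in mature embryos, so the shared direction came with very different sizes. EM1, a group 1 LEA protein, had 741 and 1137 in zygote libraries and 93081 and 90363 in mature libraries, against 0 to 145 in growing libraries with a median of 19.4. All 4 end libraries were above all growing ones, which was a condition of its choice as a named gene. The log2 change was 5.20 ± 0.55 (SE, adjusted p = 1.23e-06) in zygotes and 11.83 ± 0.55 (adjusted p = 2.51e-10) in mature embryos. GEA6, the related group 1 protein EM6, had 411 and 768 in zygotes, above every growing library. M10 had 106 and 149 in zygotes and 212836 and 140587 in mature embryos, against 0 to 36.4 in growing embryos. LEA14 had 131 and 173 in zygotes and 27882 and 22751 in mature embryos, against 3.28 to 42.8 in growing embryos. In each of these the zygote held a small but separate amount and the mature embryo far more.

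The dehydrins COR47, ERD10 and ERD14 of the list went the other way at maturity. COR47 had 842 and 690 in zygotes and 1.56 and 2.93 in mature embryos, against a growing median of 90.6. ERD10 and ERD14 shared this pattern, and all 3 were called high in zygotes and low in mature embryos under every scaling. KIN2 had 730 and 678 in zygotes and 110 and 107 in mature embryos, against a growing median of 27.2, and was the 1 LEA gene high at both ends with zygote above mature. These 4 were chosen after their values were seen. For the other 19 of the 20 genes the mature embryo was above the zygote.

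The promoters of EM1, GEA6, M10 and LEA14 are shown because these genes led the list, and that of DSI-1VOC because this desiccation-induced gene is among those named below. Each is the 250 bases before the annotated start, 5′ to 3′ on the gene's strand, from RefSeq build TAIR10.1. They lie at chr3:19214472-19214721 (+), chr2:16780369-16780618 (-), chr2:17209447-17209696 (+), chr1:172949-173198 (-) and chr1:2368437-2368686 (-). Capitals mark ACGTG on either strand, the core of the abscisic acid response element.
EM1: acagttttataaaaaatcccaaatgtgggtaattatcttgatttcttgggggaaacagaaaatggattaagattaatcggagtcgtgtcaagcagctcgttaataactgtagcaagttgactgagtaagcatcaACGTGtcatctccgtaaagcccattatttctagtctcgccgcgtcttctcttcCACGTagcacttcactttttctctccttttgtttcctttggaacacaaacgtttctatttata
GEA6: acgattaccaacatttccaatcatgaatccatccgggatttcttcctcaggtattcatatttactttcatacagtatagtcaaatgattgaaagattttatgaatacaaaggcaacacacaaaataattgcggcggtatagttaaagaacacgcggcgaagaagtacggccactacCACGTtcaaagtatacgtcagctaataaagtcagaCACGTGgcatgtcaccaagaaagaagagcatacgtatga
M10: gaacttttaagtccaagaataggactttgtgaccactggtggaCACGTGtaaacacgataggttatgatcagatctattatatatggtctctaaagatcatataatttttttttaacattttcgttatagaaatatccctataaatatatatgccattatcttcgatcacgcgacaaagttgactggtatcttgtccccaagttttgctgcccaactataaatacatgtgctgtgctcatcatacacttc
LEA14: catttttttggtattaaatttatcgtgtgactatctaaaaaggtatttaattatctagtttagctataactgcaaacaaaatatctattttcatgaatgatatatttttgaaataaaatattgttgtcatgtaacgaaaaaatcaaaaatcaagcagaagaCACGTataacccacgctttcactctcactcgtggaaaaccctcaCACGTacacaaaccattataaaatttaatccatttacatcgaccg
DSI-1VOC: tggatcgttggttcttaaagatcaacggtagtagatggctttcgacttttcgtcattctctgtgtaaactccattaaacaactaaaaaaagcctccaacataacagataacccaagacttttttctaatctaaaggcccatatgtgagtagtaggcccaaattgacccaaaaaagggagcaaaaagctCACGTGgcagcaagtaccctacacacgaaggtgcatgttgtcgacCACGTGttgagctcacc

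Of the 20 LEA promoters high at both ends, 18 held ACGTG (90%) and 13 held the G-box CACGTG (65.0%), which contains ACGTG. Of 16 tested LEA genes not high at both ends, 12 held ACGTG (75%) and 4 held CACGTG (25%). Among all 949 high genes ACGTG was in 30.1% of promoters and CACGTG in 10.7%, against 22.2% and 6.97% of low genes. The shares over all tested genes were 23.4% and 7.47%. The RY element CATGCA, known from seed promoters, was in 10.2% of high, 7.04% of low and 8.04% of all tested promoters. These shares are descriptions, and a match is not a binding site.

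**Figure D2:**
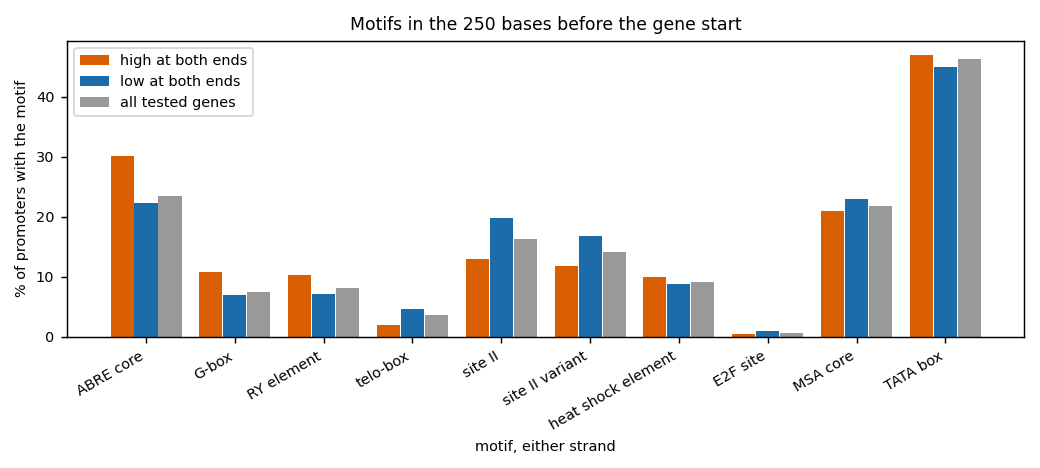
Share of promoters (vertical axis, %) with each of 10 motifs on either strand (horizontal axis) in the 250 bases before the gene start, for genes high at both ends, genes low at both ends and all tested genes. ACGTG (ABRE core) was in 30.1% of high and 22.2% of low promoters, and TGGGCC (site II) in 12.9% and 19.8%.

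Small heat shock proteins, chaperones that hold unfolding proteins, formed the other protective group. Of 17 tested members, 10 were higher at both ends (58.8%, against 5.06% of all tested genes), 9 of them under every scaling. At both ends 1 was lower (5.88%, against 29.5% of all tested genes). HSP17.4 had 408 and 521 in zygotes and 323791 and 183616 in mature embryos, against 5.62 to 215 in growing embryos. Zygote libraries were about level with each other and above every growing library. Its log2 change was 3.33 in zygotes (adjusted p = 0.0029) and 12.36 in mature embryos (adjusted p = 1.12e-08). Of its 50-base words 61.5% also occur in transcripts of other genes. It overlaps AT3G07365 and AT3G46220, so part of its reads could belong to other genes. AT1G59860 had 411 and 301 in zygotes and 1086 and 858 in mature embryos, against 7.87 to 178 in growing embryos, so its end values lay nearer to each other.

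Of 20 tested low-energy and dark-induced genes, from 25 listed, 7 were higher at both ends (35.0%), each under every scaling. At both ends 0 were lower. Of all tested genes 5.06% were higher and 29.5% lower at both ends. The list's median log2 change was 0.82 in zygotes and 0.00 in mature embryos, against -0.81 and -0.98 over all tested genes. Taken singly, 10 members were higher and 5 lower in zygotes, and 9 were higher and 5 lower in mature embryos. Of all tested genes 22.6% were higher in zygotes and 18.4% in mature embryos. ASN1, the asparagine synthetase induced in darkness, had 1118 and 969 in zygotes and 2764 and 2290 in mature embryos, against a growing median of 3.17. A growing library reached 1090, so the groups overlapped. bZIP1, a transcription factor of the low-energy response, had 511 and 267 in zygotes and 2699 and 2698 in mature embryos, against 0 to 51.8 in growing embryos. DYL1, a dormancy-associated protein, had 2535 and 3101 in zygotes and 9939 and 10880 in mature embryos, against 5.09 to 885 in growing embryos. AT2G33830, of the same dormancy-associated family, had 967 and 1346 in zygotes and 1784 and 2597 in mature embryos, against 3.31 to 215 in growing embryos. For these last 3 genes no end library overlapped a growing one, which was a condition of choice for the named genes bZIP1 and AT2G33830. GBF6, another transcription factor of the response, had 7198 and 5643 in zygotes and 6.26 and 61.6 in mature embryos, against a growing median of 1757, and was chosen after its values were seen.

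**Figure D3:**
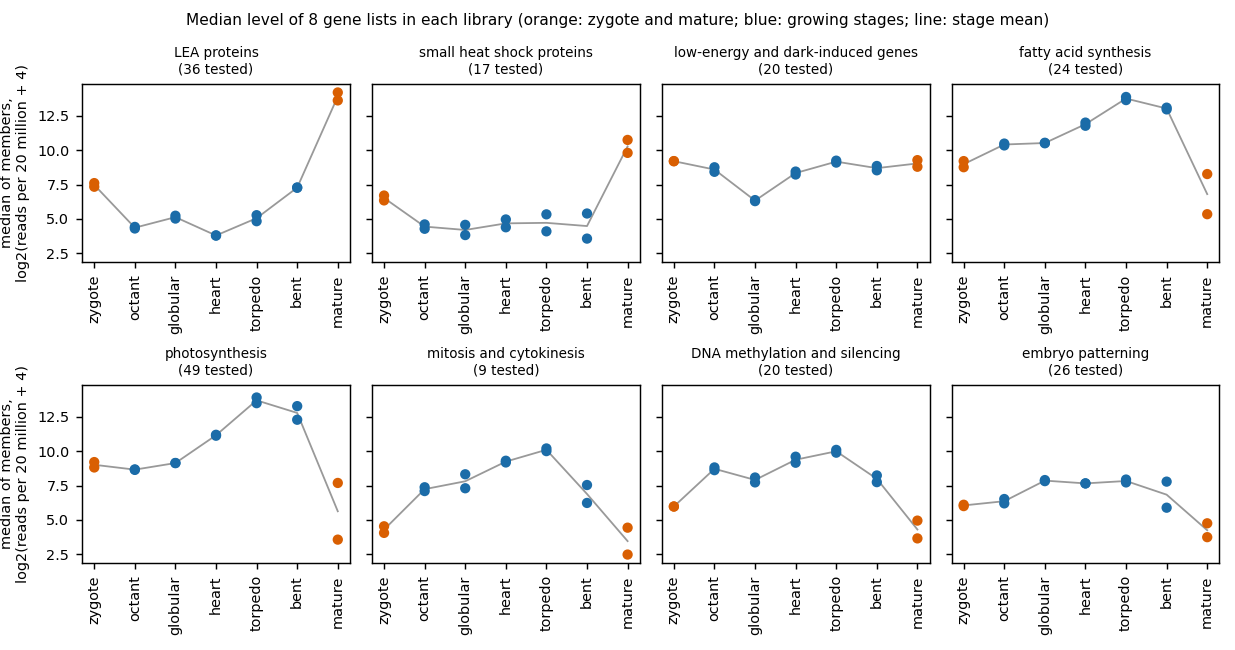
Median over tested members of 8 gene lists of log2(reads per 20000000 + 4) (vertical axis) in each library by stage (horizontal axis). Points are libraries, orange for zygote and mature and blue for growing stages, and lines join stage means. LEA and small heat shock medians were highest at maturity with a smaller excess in zygotes, and mitosis, silencing and fatty acid medians were highest in the torpedo stage.

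The 15 genes highest at both ends by the naming rule came from other families as well. All 15 kept the call under every scaling, and each end passed the test against each growing stage. They were chosen for large changes without overlap, so this was largely settled by the choice. AT2G32150, a haloacid dehalogenase-like hydrolase, had 11322 and 9344 in zygotes and 9190 and 8115 in mature embryos, against 4.54 to 4193 in growing embryos. Its log2 change was 7.30 ± 0.30 (adjusted p = 2.81e-09) in zygotes and 7.04 ± 0.30 (adjusted p = 1.26e-10) in mature embryos, and the difference between the ends did not pass the test (adjusted p = 0.602). HIS1-3, a stress-inducible linker histone, had 1889 and 1436 in zygotes and 580 and 843 in mature embryos, against 0 to 58.8 in growing embryos. RABH1c, a Rab GTPase, had 1842 and 727 in zygotes and 1227 and 1162 in mature embryos, against 1.12 to 40.8 in growing embryos. IPMI2, a subunit of isopropylmalate isomerase, had 664 and 549 in zygotes and 485 and 426 in mature embryos, against 0 to 36.0 in growing embryos. For RABH1c, HIS1-3 and IPMI2 mature minus zygote also missed the threshold, with log2 differences of 0.04, -1.23 and -0.41 (adjusted p = 0.954, 0.07 and 0.426).

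Genes of several further families completed the group. NCED4, a carotenoid cleavage dioxygenase, had 685 and 773 in zygotes and 1599 and 1185 in mature embryos, against 3.28 to 144 in growing embryos. DSI-1VOC, a desiccation-induced protein, had 795 and 818 in zygotes and 21648 and 24880 in mature embryos, against 0 to 491 in growing embryos. UGT72E1, a glucosyltransferase acting on phenylpropanoids, had 190 and 302 in zygotes and 7980 and 5981 in mature embryos, against 0 to 26.3 in growing embryos. The last 2 genes were far higher in mature embryos than in zygotes. The RING/U-box protein AT1G26800, the lectin kinase AT4G02410, the amino acid transporter AT1G08230, the sugar isomerase family gene AT5G52190 and PGIP1, an inhibitor of fungal polygalacturonases, were the other 5, and the smaller of their log2 changes at the ends lay between 4.79 and 5.47. Reads of AT5G52190 and PGIP1 are uncertain, since both overlap another gene. Of their 50-base words 100% and 84.0% occur in transcripts of other genes, overlapping genes included.

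**Figure D4:**
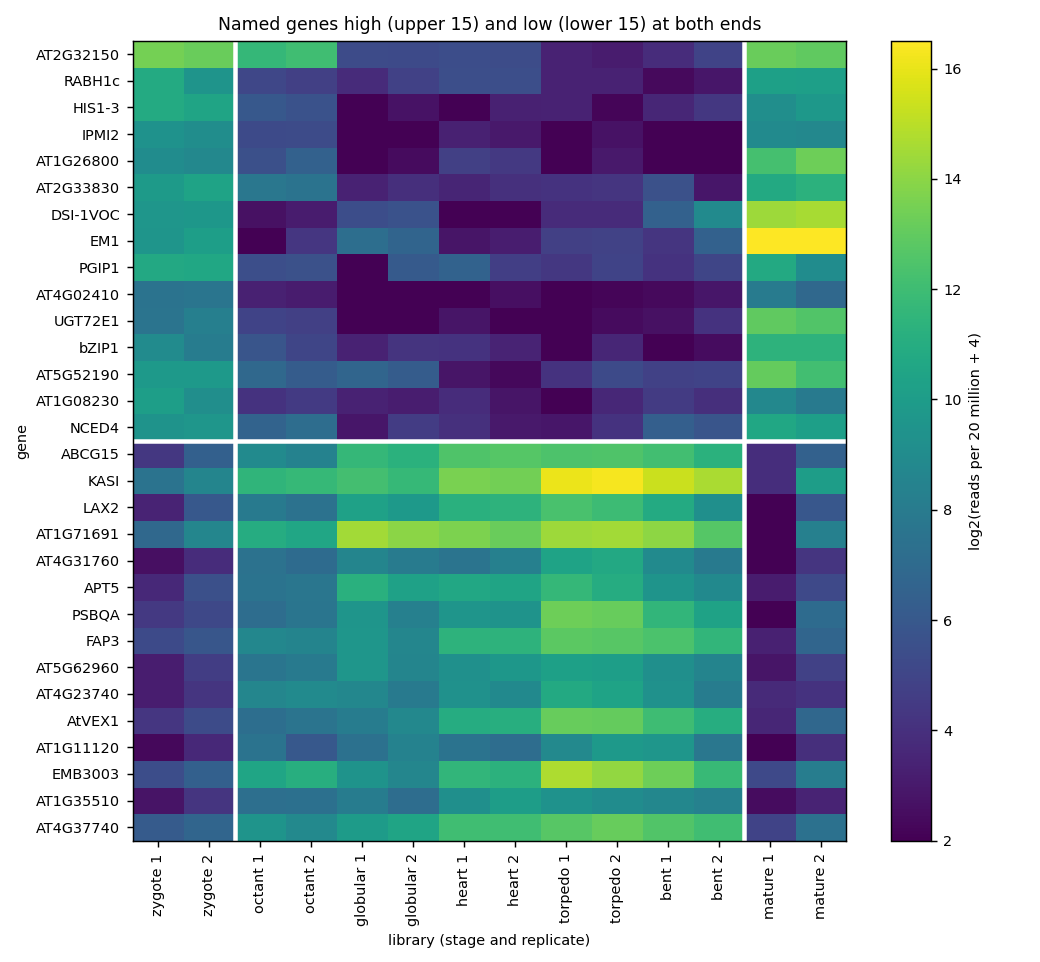
Level, as log2(reads per 20000000 + 4), of 15 genes high (upper block) and 15 genes low (lower block) at both ends in each of 14 libraries, in stage order. White lines divide the zygote, growing and mature libraries. The upper genes are bright in the outer columns, and mature 1 is near 0 for many lower genes where mature 2 holds some reads.

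Among lists with fewer high members, 4 of 33 tested abscisic acid genes were higher (12.1%, against 5.06% of all tested genes) and 7 lower at both ends (21.2%, against 29.5%), 1 of the 7 under every scaling. PYL5, an abscisic acid receptor, had 844 and 736 in zygotes and 2358 and 2012 in mature embryos, against 5.004 to 721 in growing embryos. HAI2, a phosphatase induced by the hormone, had 79.5 and 69.3 in zygotes and 2345 and 1379 in mature embryos, against 0 to 46.4 in growing embryos. ABI4, a transcription factor of the pathway, had 0 and 4.42 in zygotes and 0 and 5.87 in mature embryos, against 17.02 to 1010 in growing embryos. Of 29 autophagy genes 4 were higher (13.8%) and 5 lower at both ends (17.2%, below the 29.5% of all tested genes), 0 of the 5 under every scaling, and the count of 4 dropped to 2 without zygote replicate 1 and 1 without zygote replicate 2. Genes described as NAC factors had 9 of 38 higher at both ends (23.7%) and 7 lower (18.4%, below the 29.5% of all tested genes), 0 of the 7 under every scaling. The 7 became 4 without zygote replicate 1 and 3 without zygote replicate 2 or mature replicate 1. Seed storage proteins had 1 of 8 tested, CRU2, higher at both ends (12.5%). Oil body proteins had 2 of 14 higher (14.3%) and 2 lower (14.3%, below the 29.5% of all tested genes). Of those lower, 1 was so under every scaling, and without zygote replicate 1 there were 0 higher and 1 lower.

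Plastid fatty acid synthesis, the source of seed oil, was, of the lists, the one most often low at both ends after mitosis. Of 24 tested members of 25, 21 were lower at both ends (87.5%, against 29.5% of all tested genes), 14 of them under every scaling (9.05% of all tested genes), and 0 were higher. KASI, the condensing enzyme of acyl chain elongation, had 181 and 379 in zygotes and 11.0 and 1067 in mature embryos, against 2826 to 81171 in growing embryos. Its mature libraries lay far apart. Both were below every growing library, which was a condition of its choice as a named gene. The log2 change was -5.59 ± 0.93 (adjusted p = 7.84e-05) in zygotes and -6.67 ± 0.93 (adjusted p = 1.27e-05) in mature embryos. WRI1, the transcription factor that activates this pathway, had 40.7 and 50.1 in zygotes and 1.56 and 97.8 in mature embryos, against 203 to 7216 in growing embryos. EMB3003, the acyltransferase subunit of plastid pyruvate dehydrogenase, had 38.8 and 84.0 in zygotes and 32.9 and 275 in mature embryos, against 406 to 27164 in growing embryos. FAP3, a fatty acid-binding protein, had 34.9 and 56.0 in zygotes and 6.26 and 100.8 in mature embryos, against 365 to 7468 in growing embryos.

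Photosynthesis genes were lower in mature embryos for all 49 tested members, 47 of them under every scaling (52.6% and 23.8% of all tested genes). They were lower at both ends for 24 (49.0%), 12 of them under every scaling (29.5% and 9.05% of all tested genes). In zygotes alone 24 were lower, 14 of them under every scaling (48.8% and 25.8% of all tested genes). The zygote share was thus near that of all tested genes, and the excess at both ends came from the mature embryo. PSBQA, a subunit of photosystem II, had 17.5 and 31.0 in zygotes and 0 and 131 in mature embryos, against 139 to 10178 in growing embryos. RBCS1A, the small subunit of Rubisco, had 841 and 972 in zygotes and 70.4 and 2553 in mature embryos, against 1718 to 249311 in growing embryos, so it overlapped. The mature replicates lay far apart for both genes. Of all genes low at both ends, 66.6% were higher in mature replicate 2 than in replicate 1, with a median log2 difference of 0.32, against 54.8% and 0.10 over all tested genes.

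All 9 tested mitosis and cytokinesis genes, of 26 listed, were lower at both ends, 7 of them under every scaling. Of all tested genes 29.5% were lower at both ends, and 9.05% under every scaling. PLE, a microtubule bundling protein of the dividing cell, had 10.7 and 8.85 in zygotes and 0 and 17.61 in mature embryos, against 61.9 to 971 in growing embryos. CDC20.1, an activator of the anaphase-promoting complex, had 41.7 and 66.4 in zygotes and 0 and 20.5 in mature embryos, against 149 to 2487 in growing embryos. Of its 50-base words 31.4% occur in transcripts of other genes. Genes described as kinesins were lower at both ends in 19 of 28 (67.9%), 10 of them under every scaling. Of 14 tested DNA replication genes 8 were lower at both ends (57.1%), 3 of them under every scaling. The 8 became 5 without zygote replicate 2. In mature embryos alone all 14 were lower, each under every scaling (52.6% and 23.8% of all tested genes). In zygotes alone 8 were lower, 3 of them under every scaling (48.8% and 25.8% of all tested genes). MCM6, a subunit of the replicative helicase, had 5.82 and 16.2 in zygotes and 1.56 and 9.78 in mature embryos, against 38.1 to 568 in growing embryos.

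DNA methylation and silencing genes were lower at both ends in 14 of 20 (70.0%), 9 of them under every scaling (29.5% and 9.05% of all tested genes). MET1, which maintains CG methylation after replication, had 36.8 and 53.1 in zygotes and 9.39 and 25.4 in mature embryos, against 139 to 2090 in growing embryos. AGO4, which carries small RNAs in RNA-directed DNA methylation, had 168 and 205 in zygotes and 171 and 238 in mature embryos, against 910 to 8829 in growing embryos. NRPD1B, the largest subunit of RNA polymerase V, had 5.82 and 13.3 in zygotes and 7.82 and 11.7 in mature embryos, against 84.0 to 1286 in growing embryos. FIE, a subunit of the Polycomb complex that methylates histone H3, had 11.6 and 28.0 in zygotes and 34.4 and 49.9 in mature embryos, against 247 to 2004 in growing embryos. In these 4 genes all end libraries were below every growing library.

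Ribosome genes were also low at both ends in shares above the 29.5% of all tested genes. Genes described as ribosomal proteins had 132 of 272 lower at both ends (48.5%), 42 of them under every scaling (9.05% of all tested genes). They had 6 higher (2.21%, against 5.06% of all tested genes), which became 3 without mature replicate 1. Nucleolar ribosome biogenesis genes had 14 of 23 lower (60.9%), 3 of them under every scaling (9.05% of all tested genes). The 14 became 9 without zygote replicate 1. AT2G40430, a Nop53 protein, had 342 and 633 in zygotes and 169 and 267 in mature embryos, against 1252 to 4235 in growing embryos. It overlaps AT2G40420, and 13.9% of its 50-base words occur in transcripts of other genes. AT5G15550, a WD40 repeat protein, had 131 and 189 in zygotes and 59.5 and 55.8 in mature embryos, against 345 to 1398 in growing embryos. The site II motif TGGGCC was in 67 of the 132 ribosomal promoters low at both ends (50.8%) and in 61 of the other 140 (43.6%), against 16.3% of all tested promoters. It was also in 8 of 10 promoters of small heat shock genes high at both ends.

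The promoter of AT5G15550 is shown as that of a nucleolar gene whose end and growing libraries did not overlap. It lies at chr5:5062145-5062394 (-), and capitals mark the site II motif TGGGCC on either strand.
AT5G15550: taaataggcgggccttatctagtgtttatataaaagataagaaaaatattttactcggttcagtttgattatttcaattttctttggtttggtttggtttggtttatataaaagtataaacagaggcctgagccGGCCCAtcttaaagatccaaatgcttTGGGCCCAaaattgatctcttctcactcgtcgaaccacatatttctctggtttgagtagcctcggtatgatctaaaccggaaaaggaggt

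Of 26 tested patterning genes 13 were lower at both ends (50%), 5 of them under every scaling (29.5% and 9.05% of all tested genes). PHB, a homeobox factor of upper leaf side and shoot identity, had 59.2 and 54.6 in zygotes and 40.7 and 58.7 in mature embryos, against 664 to 3023 in growing embryos. BBM, an AP2 factor that promotes embryo formation, had 4.85 and 13.3 in zygotes and 7.82 and 5.87 in mature embryos, against 126 to 879 in growing embryos. AGL15 and NF-YB6, regulators active during embryo development, were also below every growing library, and FUS3, a master regulator of maturation, overlapped. NF-YB6 overlaps AT5G47660 and AT5G47680, and 12.5% of its 50-base words occur in transcripts of other genes. Among the named low genes, LAX2, an auxin influx carrier, had 6.79 and 59.0 in zygotes and 0 and 56.7 in mature embryos, against 171 to 5159 in growing embryos. AT4G37740, growth-regulating factor 2, had 66.9 and 100 in zygotes and 26.6 and 168 in mature embryos, against 459 to 8924 in growing embryos. ABCG15, an ABC transporter, had 16.5 and 82.6 in zygotes and 11.0 and 87.1 in mature embryos, against 340 to 6483 in growing embryos.

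The remaining named low genes were a GDSL lipase (AT1G71691), a peroxidase (AT4G31760), APT5, AT5G62960, a leucine-rich repeat kinase (AT4G23740), the sugar transporter family gene AtVEX1, AT1G11120 and an O-fucosyltransferase (AT1G35510). Their log2 changes were -4.98 to -5.51 in zygotes and -5.02 to -8.07 in mature embryos. All 15 named low genes kept the call under every scaling, and every one except AT1G71691 passed against each growing stage. Their choice by large changes without overlap made this likely in advance. AT1G71691, EMB3003, FIE and AtVEX1 overlap other genes. Of their 50-base words 25%, 0.224%, 1.39% and 0% occur in transcripts of other genes, so it is mainly the reads of AT1G71691 that are uncertain. Of 12 tested genes commonly used as expression references, 5 were lower at both ends (41.7%, against 29.5% of all tested genes). Under every scaling 1 of them was, a share near that of all tested genes, and the 5 became 3 without mature replicate 1. Their summed level was 28964 to 30292 in zygotes and 18123 to 18849 in mature embryos, against 56235 to 189137 in growing embryos.

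**Figure D5:**
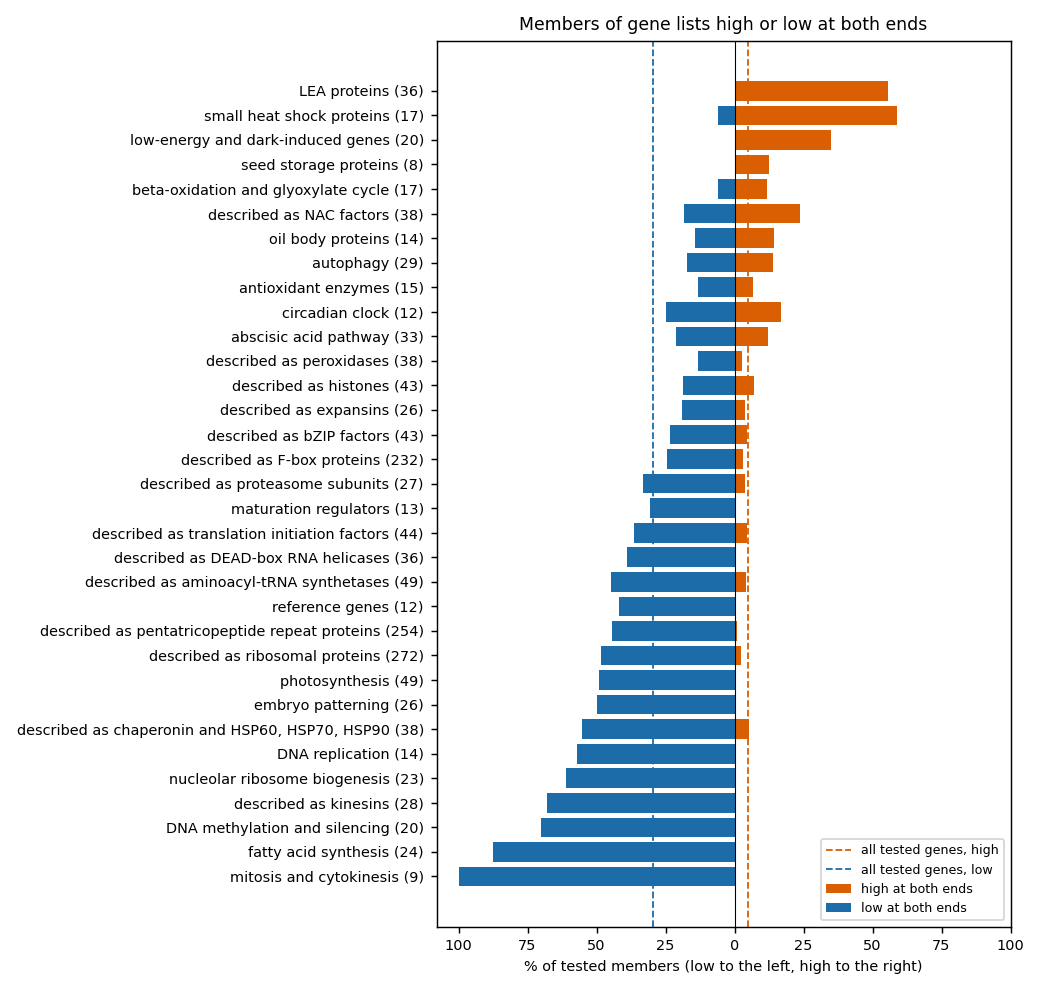
Share of tested members (horizontal axis, %) of each gene list (vertical axis, number tested in brackets) higher (orange, right) or lower (blue, left) than the growing stages at both ends. Dashed lines mark the shares over all tested genes, 5.06% high and 29.5% low. LEA proteins (55.6%) and small heat shock proteins (58.8%) had the largest high shares shown.

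Other genes moved in opposite directions at the ends. PIP5K1, a kinase that makes phosphatidylinositol 4,5-bisphosphate, had 76047 and 92525 in zygotes and 0 and 5.87 in mature embryos, against 178 to 5696 in growing embryos. AT2G14900, of the gibberellin-regulated family, had 95547 and 161801 in zygotes and 31.3 and 11.7 in mature embryos, against 130 to 43452 in growing embryos. CYP709B1, a cytochrome P450, had 31564 and 32926 in zygotes and 0 and 1.96 in mature embryos, against 13.3 to 4211 in growing embryos. In the other direction, UMAMIT8, a transporter of the amino acid exporter family, had 0.970 and 1.47 in zygotes, 1 read in each library, and 7585 and 7104 in mature embryos, against 40.9 to 514 in growing embryos. AT1G48990, of the oleosin family that coats oil bodies, had 76.6 and 73.7 in zygotes and 19146 and 27986 in mature embryos, against 116 to 18796 in growing embryos. LEC1, a regulator of embryo maturation, had 30064 and 21555 in zygotes and 0 and 10.8 in mature embryos, against a growing median of 10641, and was chosen after its values were seen.

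The ends also differed within the shared classes. Of the 949 high genes, 329 (1.76% of tested genes) were higher in mature embryos than in zygotes and 160 (0.854%) were lower, of which 286 and 107 held under every scaling. Of the 5533 low genes, 957 (5.11%) were higher in mature embryos and 1360 (7.26%) lower, of which 95 and 323 held under every scaling. These counts rested on single libraries. The 329 became 195 and 191 without zygote replicate 1 or 2, and the 160 became 83 and 76 without mature replicate 1 or 2. The 957 became 609 without zygote replicate 1, and 539 and 446 without mature replicate 1 or 2, and the 1360 became 755 and 708 without zygote replicate 1 or 2.

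Genes of the classes also differed in structure. High genes had a median transcript length of 1446 bases and 2 introns, and 27.3% had none. Low genes had a median of 1854 bases and 5 introns, and 11.3% had none. All tested genes had a median of 1695 bases and 3 introns, and 16.8% had none. The part of amplification and of fragment length in these differences was not tested.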

How the data were processed

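RNA of whole embryos was sequenced in 14 libraries, 2 biological replicates at each of 7 stages. Build TAIR10 and the tools STAR, HTSeq, DESeq2, CASAVA, Trimmomatic and FastQC are listed in the submitters' processing notes, without roles or versions. The authors deposited 1 table of a normalised signal for each gene, in which each library summed to 20000000 over 25517 entries, 103 of them without an identifier (9.15% to 26.3% of reads). Whole reads were recovered for 100% of values (tolerance 0.001). In 1 heart library (replicate 2) the value of 1 read is 1.00. The kit does not mark strand, so overlapping genes cannot be told apart. Symbols, promoters and gene structures came from RefSeq TAIR10.1, which matched 24932 of 25414 named genes.

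Testing required a value of at least 10 in 2 or more libraries, which kept 18744 genes and left out 6670. Values were transformed as log2(value + 4) and fitted by stage over all 14 libraries with limma 3.58.1 in R 4.3.3 (7 residual and 7.81 prior degrees of freedom). P-values measure the spread between 2 libraries a stage. A gene was high or low at both ends where zygote minus growing and mature minus growing both had an adjusted p under 0.05 in 1 direction. "Every scaling" means the deposited, upper-quartile, quantile, median-centred, edgeR 4.0.16 and DESeq2 1.42.0 scalings. The edgeR and DESeq2 settings used their own tests on recovered reads in place of limma. They changed the test along with the scaling. The alternatives also covered the filter, the pseudocount, each library left out, phase as the term, the growing stages without octant and bent, and a replicate block.

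The 15 named genes each way had the largest smaller change, no overlap between end and growing libraries, and a mean of 100 or more. For each opposed pattern the 5 largest were taken, and up to 4 members were taken from each list. In the 22 lists there were 484 genes, 423 of them analysed and 61 not analysed here. Families were taken by product description. The members and lists were chosen with earlier results of these data known. On simulated data 200 of 18744 genes, drawn from the more abundant ones, were changed at both ends. There 4-fold changes were called at both ends for 86% of raised and 74% of lowered genes, and 2-fold changes for 4% and 2%. A far larger share of genes passed in the real data, which makes the adjusted threshold laxer. The simulated rates therefore do not give the sensitivity of the real tests. Motif letters were searched on both strands. Scripts ran in Python 3.11.15.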

Additional observations from a re-analysis of the deposited data

Results flagged for a closer look

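Mature embryos and zygotes differed in their change from the growing stages for 6 of the genes named as high at both ends, by limma's test of mature minus zygote. The log2 differences were 3.86 for AT1G26800 (adjusted p = 1.23e-05), 4.84 for DSI-1VOC (adjusted p = 4.37e-06) and 6.64 for EM1 (adjusted p = 1.18e-06). They were 4.83 for UGT72E1 (adjusted p = 1.5e-06), 2.86 for bZIP1 (adjusted p = 0.000487) and 2.78 for AT5G52190 (adjusted p = 0.000149). In each of these 6 genes both mature libraries were above both zygote libraries.

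The named genes with opposed patterns differed by definition of their choice, and their values are a description. Mature minus zygote was -13.70 for PIP5K1, -12.37 for AT2G14900, -12.69 for CYP709B1, -11.18 for AT2G43530 and -10.78 for AT1G12080. It was 10.46 for UMAMIT8, 9.25 for AT3G27770, 8.65 for AT5G16010, 8.19 for AT1G48990 and 7.10 for AT4G36210.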

How the results depend on the processing

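Under DESeq2, edgeR, median-centring and quantile normalization, the ends were higher for 6131, 5526, 8424 and 5849 genes and lower for 5690, 6050, 4815 and 6588. In the same order the mature embryo was higher for 5611, 5758, 7717 and 5754 genes and lower for 5981, 5756, 4840 and 6150. Under DESeq2, edgeR and median-centring the zygote was higher for 6893, 6570 and 7084 and lower for 5022, 5570 and 5206. Genes high at both ends numbered 2450, 2266, 3340 and 1953 under the 4 settings and 1621 under upper-quartile scaling. Genes low at both ends numbered 2196, 2411, 1910 and 2766 under the 4 settings. DESeq2 and edgeR used their own tests. High genes with mature above zygote numbered 819, 762, 1076 and 578, and 568 under upper-quartile scaling, and with zygote above mature 491, 416, 784 and 362, and 284. Low genes with mature above zygote numbered 240, 289, 254 and 446, and 533, and with zygote above mature 598, 595, 441 and 596. With phase as the only term 1007 genes were higher and 4937 lower at the ends. Adding stage as a random block, which treats libraries of a stage as correlated, gave 87 and 291. The cause was not tested.

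Leaving out 1 library at a time gave 3165 to 3638 higher and 9312 to 10255 lower for the ends, 3379 to 4342 and 7282 to 9378 for zygotes, and 2831 to 3544 and 8048 to 10021 for mature embryos. Genes high at both ends ranged over 749 to 976, low over 4473 to 5756, zygote high and mature low over 1560 to 2050, and the reverse over 945 to 1333. The subclasses by the difference of the ends ranged over 191 to 346, 76 to 175, 446 to 1056 and 708 to 1494. The sign of mature minus growing reversed after median-centring for OLEO3 (0.13), AT2G28390 (0.058), AT5G26630 (0.026) and HAP2 (0.45, and 0.023 under quantile normalization). Replicate numbers showed no pairing across all stages, since correlations of 21 stage pairs ran from -0.11 to 0.30 with 3 over 0.1. These 3 were globular with torpedo (0.30), globular with bent (0.16) and torpedo with bent (0.103). Whether those stages shared a batch was not tested. With a replicate block, 954 genes were high and 5508 low at both ends. Low values limit what can be seen, since 1 read is worth up to 3.29 in the shallowest library.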
